A study of Mus musculus with 4 samples.

Results

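Slc15a2 (ENSMUSG00000022899) and the long noncoding RNA Gm56626 (ENSMUSG00000120777), which lies inside it on the same strand, were followed in fine-needle aspirates of mouse liver. They were 2 of the 33696 genes in the deposited count matrices, and were read by library in macrophages, T cells and B cells gated on raw marker counts. The pair was chosen with the ratios between these libraries known, so the levels and ratios below are a description and carry no test.

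Slc15a2 encodes PEPT2, a membrane transporter that moves dipeptides and tripeptides into cells together with protons. It is best known from the kidney and the choroid plexus, and in myeloid cells it can carry small bacterial cell-wall peptides toward the cytosolic sensors Nod1 and Nod2. Of its relatives, Slc15a1 encodes the intestinal peptide transporter PEPT1, while Slc15a3 and Slc15a4 encode peptide and histidine transporters of endosomes and lysosomes. Gm56626 is an annotated noncoding transcript to which no function is given in the sources used here.

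The mice were male wild-type C57BL/6J, 7 weeks old at the start, and every group ate the FPC (fructose, palmitate, cholesterol and trans-fat) diet that models steatotic liver disease. One group received 1.25% cholesterol and the other 0.05% until week 24, when P-HC24 and P-LC24 were taken; both then received 0.05% for 8 weeks, and I-HC32 and I-LC32 were taken at week 32. At each time point 4 aspirates from each of 3 mice, the same mice at both weeks, were pooled into 1 library of liver non-parenchymal cells, 4 libraries in all. Diet, library and pool of mice therefore cannot be told apart, and a single mouse that differed from the others in its pool cannot be seen. The progression comparison was P-HC24 against P-LC24, and the intervention comparison was I-HC32 against I-LC32. Where 4 values follow each other with no library named, they run from P-LC24 to P-HC24 at week 24, then from I-LC32 to I-HC32 at week 32.

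The libraries held 50941106 to 89257239 unique molecular identifiers (UMIs, 1 for each captured RNA molecule) over 33198 barcodes, of which 25358 passed the cell filters. The kept cells had a median of 6290.5 to 8533 UMIs per library, and 12 to 31 kept barcodes were shared between any pair of libraries. Among them were 16954 B cells, 4405 T cells and 1375 macrophages. The macrophages carried the macrophage set Adgre1, C1qa, C1qb, C1qc and Vsig4 at 5061 to 8811 CPM (UMIs scaled to a total of 1000000 per class and library), but Clec4f, which defines the resident Kupffer cells of the liver, was at 0 in those of P-HC24, I-LC32 and I-HC32 and at 3.35 CPM in P-LC24. Gata6, known from macrophages of the peritoneal cavity, was at 53.1 CPM or more in the same cells of every library. Whether the gated macrophages are liver-resident cells was not tested.

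In GRCm39, Slc15a2 runs along the minus strand of chromosome 16 from 36605334 to 36570475, and its reference transcript has 22 exons. Gm56626 (36585467 to 36590580) has 2 exons and lies whole within intron 7 of Slc15a2, between exons 7 and 8. Of the 20 annotated Slc15a2 transcripts 8 span it, 5 end before it and 7 start after it. Its ends fall in a pair of direct repeats of 398 bases that are identical at 398 of 398 positions and lie 5298 bases apart from outer end to outer end. Gm56626 starts 134 bases inside the upstream repeat and stops 50 bases before the end of the downstream one. The genome just outside the repeats is shown because a duplicated stretch of 6 bases, in capitals, sits at both outer edges; both flanks are read 5′ to 3′ along the minus strand of GRCm39.
upstream flank, chr16:36590715-36590744: atagaagggcttctgacaagcactCTGGAG
downstream flank, chr16:36585387-36585416: CTGGAGgttgtaagggtttgcctccagaga
Identical long repeats bounded by a short target-site duplication are the usual layout of a retrovirus-like element, and this description rests on the sequence alone, since no repeat annotation was used here.

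**Figure D1:**
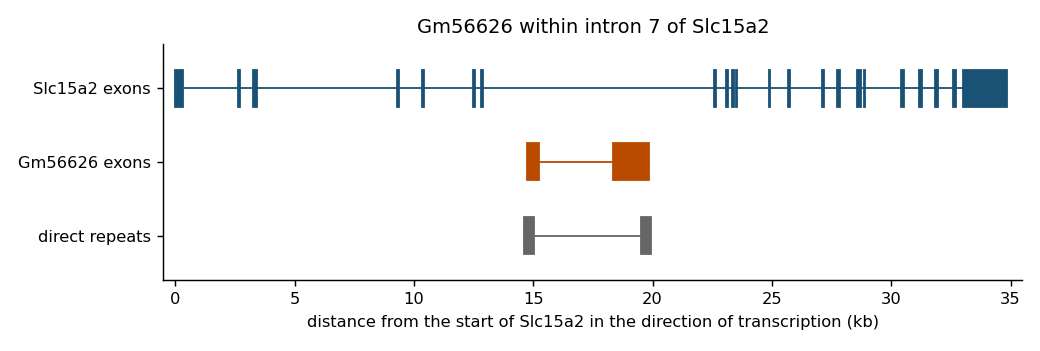
Map of Slc15a2 drawn to scale, in kb downstream of its transcription start, with the exons of Slc15a2, the exons of Gm56626 and the direct repeats. The 2 Gm56626 exons sit 14.754 to 15.26 and 18.355 to 19.868 kb from the start, far from the last Slc15a2 exon at 33.018 to 34.86 kb, where reads of this 3′ assay are expected to fall.

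This layout bears on how far the Gm56626 counts can be trusted. All 1753 windows of 90 bases in the last Slc15a2 exon occurred once in GRCm39. In Gm56626, 40 of 417 windows of exon 1 (9.59%) occurred once, none of the 1424 windows of exon 2 did, and the median exon 2 window occurred at 90 places. The median window occurred at 3 places in exon 1 and at 8 in the last 300 bases of exon 2. Reads with many equal matches may be left out of the counts, and how those with a few were treated was not examined. The Gm56626 counts may thus come from part of the gene or from spliced reads, and may hold reads of other copies. An unspliced Slc15a2 transcript also runs through Gm56626 on the same strand, and which of the 2 genes a read came from cannot be told apart in a count matrix. Reads in the last Slc15a2 exon do not share the first limit, while the rest of Slc15a2 was not examined in this way.

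Slc15a2 was found in every library at a low level, 4574 UMIs in all over 2496 of the kept cells. At week 24 its level in B cells was 21.3 CPM with low cholesterol (95% exact Poisson interval 19.4 to 23.3, from 488 UMIs) and 21.5 CPM with high cholesterol (20.1 to 23.0, 834 UMIs). At week 32 it was 9.76 CPM in I-LC32 (8.83 to 10.8, 408 UMIs) against 24.9 CPM in I-HC32 (23.6 to 26.3, 1285 UMIs). The library of mice kept on low cholesterol to week 32 thus stood below the other 3, which lay close together. All such intervals cover counting error only. T cells had 18.9 (16.1 to 22.0), 22.7 (19.6 to 26.2), 10.1 (8.34 to 12.1) and 34.0 CPM (29.7 to 38.7), from 163, 188, 116 and 227 UMIs. I-LC32 was again lowest, and I-HC32 lay above the interval of every other library. Macrophages gave 8.95 (5.11 to 14.5), 17.4 (15.1 to 20.05), 4.93 (2.63 to 8.43) and 17.2 CPM (15.1 to 19.5), from 16, 197, 13 and 248 UMIs. Here both libraries of the mice first fed high cholesterol stood above both of the low-cholesterol mice, which held only 86 and 120 macrophages.

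**Figure D2:**
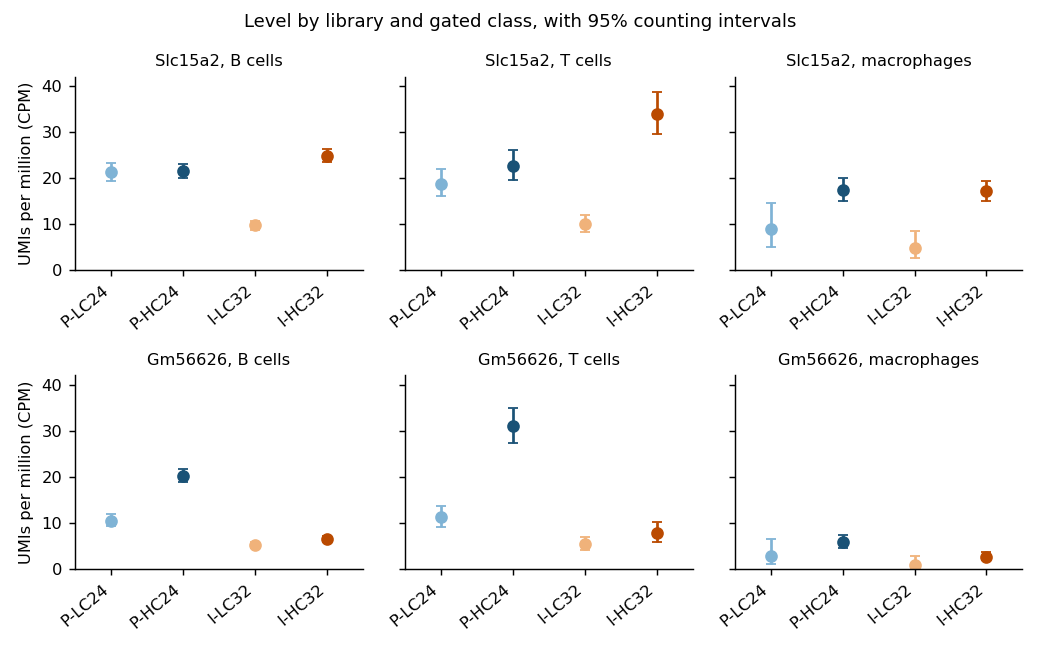
Level of Slc15a2 and of Gm56626 in CPM (vertical axis) in B cells, T cells and macrophages of each library, with 95% exact Poisson intervals as bars. I-LC32 holds the lowest Slc15a2 level in all 3 classes (9.76, 10.1 and 4.93 CPM), and P-HC24 the highest Gm56626 level (20.1, 30.9 and 5.75 CPM).

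Slc15a2 was not particular to these classes. It was at 13.7, 29.9, 17.5 and 26.8 CPM in NK cells, on 10 to 21 UMIs per library, and at 12.0, 13.9, 9.01 and 25.7 CPM in monocytes. In NK cells all 4 intervals overlapped, whereas in monocytes I-HC32 (16.9 to 37.4) lay above I-LC32 (5.42 to 14.1). Neutrophils gave 12.7, 33.3, 0 and 20.1 CPM, where the 0 in I-LC32 rests on 33 cells and 3 counts there would already be 34.3 CPM. Over the 4 libraries the ranges of all these classes overlapped. Within each library, macrophages lay below B, T and NK cells in CPM. Against B cells the intervals were apart in P-LC24, I-LC32 and I-HC32, and nearly touching in P-HC24. Against T cells they overlapped in P-HC24 and I-LC32, and against NK cells in all libraries but I-LC32. Macrophages were deeper, at medians of 18978.5, 21825.5, 19362.5 and 20717 UMIs per cell against 5844 to 8664.5 in B cells. Without scaling, 8.14%, 18.75%, 3.33% and 13.1% of macrophages had a Slc15a2 UMI, against 7.64%, 11.8%, 4.91% and 14.5% of B cells. Per cell, macrophages held more Slc15a2 UMIs than B cells in all 4 libraries. These were 16, 197, 13 and 248 UMIs in 86, 496, 120 and 673 macrophages. In CPM, T and B cells had overlapping intervals in all libraries but I-HC32, where T cells were higher.

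A UMI of Slc15a2 was seen in 7.64%, 11.8%, 4.91% and 14.5% of B cells, at median depths of 5844, 6647, 6764.5 and 8664.5 UMIs. With each cell thinned to 1000 UMIs the shares were 1.96%, 2.28%, 1.03% and 2.57%. Neutrophils, taken as the reference for RNA picked up from the suspension, gave 1.44%, 3.18%, 0 and 2.82% after the same thinning, on 127, 123, 32 and 21 cells, and unthinned shares of 3.10%, 8.06%, 0 and 9.09% at median depths of 4186, 4035.5, 2547 and 3312.5 UMIs. After thinning, the B cell share was thus below the neutrophil share in P-HC24 and I-HC32. By this reference a single Slc15a2 UMI does not by itself mark a B cell that makes the transcript. The reference is weak, since the neutrophils of I-HC32 held 2 Slc15a2 UMIs in 22 cells. In P-HC24, 13 of the 18 neutrophil UMIs lay in 5 cells with at least 2. Whether neutrophils make Slc15a2 themselves was not tested. Barcodes gated on haemoglobin, a second reference, numbered 12, 8, 11 and 7. They held 0, 6, 0 and 0 Slc15a2 UMIs, and were too few for a comparison. The thinned T cell shares were 1.65%, 2.20%, 1.10% and 3.28%, and those of macrophages were 0.64%, 1.60%, 0.37% and 1.65%. An estimate of the share of B cell UMIs from free RNA was 0.768% to 1.44%. It was set by the lowest of a few genes of other cell types, with the kept cells as the assumed source. It is not an upper limit, since haemoglobin, from red cells, was alone at 18214 CPM in B cells of P-LC24, where the estimate was 1.44%.

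The UMIs were bunched in few cells. Slc15a2 UMIs lay in 0.54, 0.71, 0.60 and 0.65 times as many B cells as depth alone would give, while the median gene lay between 0.925 and 0.954. Only 1.52% to 3.24% of genes were more bunched. Cells with at least 2 UMIs held 75.2%, 60.1%, 64.5% and 69.7% of the B cell UMIs, and single B cells held up to 13. In T cells the corresponding ratio was 0.49, 0.77, 0.75 and 0.68. There 1.17%, 5.34%, 7.20% and 4.50% of genes were more bunched, so Slc15a2 stood out less than in B cells in P-HC24, I-LC32 and I-HC32. Gm56626 was spread as depth gives, with ratios of 0.916 to 0.974 in B cells and 10.9% to 30.5% of its UMIs in cells with at least 2. The pair therefore differed in how it was distributed over cells in every library, a contrast that the choice of the pair did not use.

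The level of Gm56626 in B cells was 10.4 CPM in P-LC24 (9.15 to 11.8, from 239 UMIs) against 20.1 CPM in P-HC24 (18.7 to 21.6, 781 UMIs), and at week 32 it was 5.05 (4.39 to 5.77, 211 UMIs) and 6.34 CPM (5.67 to 7.06, 327 UMIs). In T cells it was 11.2 (9.10 to 13.7), 30.9 (27.3 to 35.0), 5.31 (4.06 to 6.82) and 7.79 CPM (5.82 to 10.2). P-HC24 was highest and I-LC32 lowest in both lymphocyte classes, an order unlike that of Slc15a2, which was highest in I-HC32. Macrophages held few Gm56626 UMIs, 5, 65, 2 and 37, for levels of 2.80, 5.75, 0.759 and 2.56 CPM. Their intervals in CPM lay below those of B cells in all 4 libraries. In NK cells and monocytes the libraries held 1 to 15 UMIs each, with the most in P-HC24 in both classes.

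In the progression comparison, the log2 ratio of Slc15a2 was 0.01 in B cells (95% interval -0.15 to 0.18) and 0.27 in T cells (-0.04 to 0.58). Neither interval left 0, against medians over all genes tested of -0.21 in B cells and -0.23 in T cells. Macrophages gave 0.96 (0.23 to 1.80), a ratio of 1.95 between 17.4 and 8.95 CPM. There 16.3% of 7998 genes were at least 1.2-fold higher and 1.91% at least 2-fold higher. Slc15a2 was counted among these only through P-HC24, where 18.75% of macrophages had a UMI against 8.14% in P-LC24. Its place among the macrophage genes is thus not evidence of its own. Gm56626 was 1.93-fold higher in B cells of P-HC24 (log2 ratio 0.95, 0.74 to 1.16), where 15.3% of 6629 genes were at least 1.2-fold higher and 0.377% at least 2-fold higher. In T cells it was 2.76-fold higher (log2 ratio 1.46, 1.12 to 1.82), where 11.6% of 6844 genes reached 1.2-fold and 0.292% reached 2-fold. In both classes at least 10% of cells had a Gm56626 UMI in the P-HC24 library alone, so its place among the counted genes is not evidence of its own. The macrophage value of 1.04 (-0.25 to 2.71) could not be set apart from 0 at this depth.

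In the intervention comparison the larger difference was that of Slc15a2. It was 2.55-fold higher in B cells of I-HC32 than of I-LC32 (log2 ratio 1.35, 1.19 to 1.52), 3.37-fold higher in T cells (1.75, 1.42 to 2.09) and 3.48-fold higher in macrophages (1.80, 1.00 to 2.73). At least 2-fold higher were 0.413% of 7497 genes in B cells, 0.783% of 6771 in T cells and 1.66% of 8751 in macrophages, and at least 1.2-fold higher were 12.9%, 18.2% and 14.1%. Slc15a2 entered these counts only because at least 10% of cells had a UMI in the I-HC32 library, so its place among the genes is not evidence of its own. Gm56626 gave 0.33 in B cells (0.07 to 0.59), 0.55 in T cells (-0.01 to 1.11) and 1.76 in macrophages (-0.20 to 4.85, on 37 and 2 UMIs), and did not reach the share of cells needed to be counted. Its difference between the groups of mice was thus smaller at week 32 than at week 24 in both lymphocyte classes. These values were not tested against each other.

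**Figure D3:**
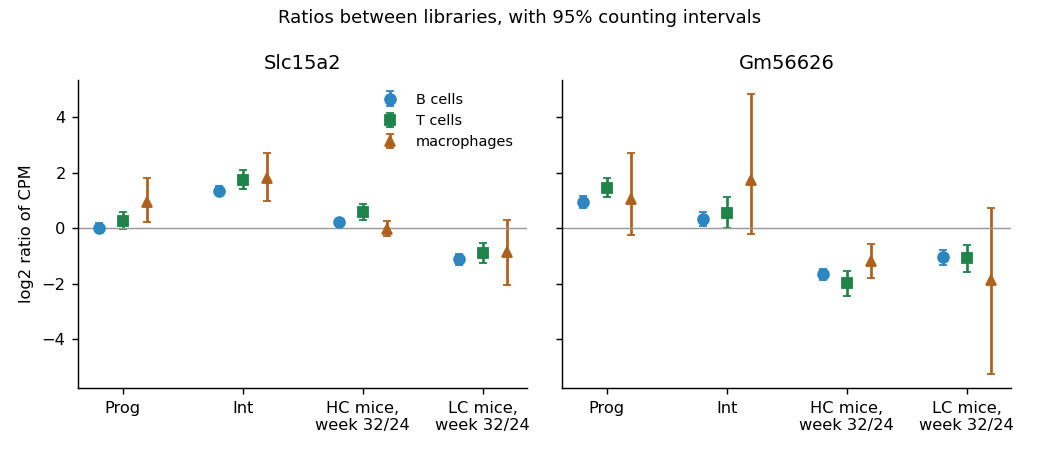
Log2 ratio between libraries (vertical axis) for Slc15a2 and Gm56626 in B cells, T cells and macrophages, with 95% exact conditional intervals, for the progression and intervention comparisons and for week 32 over week 24 within each group of mice. The intervention values of Slc15a2 lie at 1.35, 1.75 and 1.80, while its B and T cell progression values of 0.01 and 0.27 have intervals that reach 0.

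The same 4 libraries can be read within each group of mice over time, and these ratios share libraries with the comparisons above. In the mice that changed from high to low cholesterol, the log2 ratio of week 32 to week 24 for Slc15a2 was 0.21 in B cells (0.09 to 0.34) and 0.58 in T cells (0.30 to 0.87), where the median gene stood at 0.22 and 0.32. In macrophages it was -0.02 (-0.30 to 0.26). At least 1.2-fold higher were 41.5% of genes in B cells and 57.2% in T cells. In the mice kept on low cholesterol it was -1.13 in B cells (-1.32 to -0.93), -0.90 in T cells (-1.26 to -0.55) and -0.86 in macrophages (-2.04 to 0.29). In these mice 0.77% of the genes counted in B cells and 0.56% in T cells were at least 2-fold lower, though neither member had a UMI in enough cells to be among them. Gm56626 gave -1.67 in B cells (-1.86 to -1.48) and -1.99 in T cells (-2.45 to -1.55) of the first group, and -1.05 and -1.08 in the second. Of the genes counted in the first group, 0.348% in B cells and 0.543% in T cells were at least 2-fold lower, and Gm56626 was among them only through the P-HC24 library. Gm56626 was thus lower at week 32 in B and T cells of both groups of mice, and Slc15a2 in those of the mice that had low cholesterol throughout.

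Because numerator and denominator come from the same cells, the number of Gm56626 UMIs per Slc15a2 UMI is free of the library total. Among B cells it was 0.490 (0.418 to 0.573) and 0.936 (0.848 to 1.03) at week 24, and 0.517 (0.436 to 0.612) and 0.254 (0.225 to 0.288) at week 32. Among T cells it was 0.595 (0.458 to 0.770), 1.36 (1.12 to 1.65), 0.526 (0.379 to 0.723) and 0.229 (0.166 to 0.311). In both classes the 2 low-cholesterol libraries overlapped, P-HC24 stood above them and I-HC32 below them. Macrophages held fewer Gm56626 UMIs per Slc15a2 UMI than B cells in P-HC24, at 0.330 (0.245 to 0.439), and in I-HC32, at 0.149 (0.103 to 0.211). In these 2 libraries the intervals of macrophages and B cells did not overlap, whereas in P-LC24 and I-LC32 they did.

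**Figure D4:**
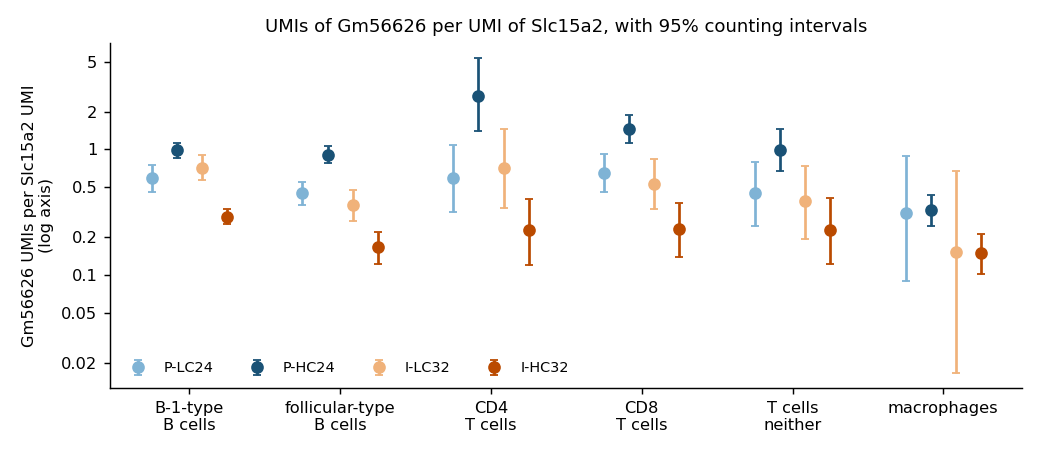
Gm56626 UMIs per Slc15a2 UMI (vertical log axis) in B-1-type and follicular-type B cells, in T cells with a Cd4 UMI, a Cd8 UMI or neither, and in macrophages of each library, with 95% intervals from the exact binomial share. P-HC24 is the highest point of every B and T cell subset, from 0.911 to 2.64, and I-HC32 the lowest, from 0.167 to 0.293.

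The members were found in the same cells more often than in others. In B cells of P-LC24, 28.0% of cells with a Slc15a2 UMI also had one of Gm56626, against 4.88% of the other B cells. The shares were 30.8% against 12.7% in P-HC24, and at week 32 they were 16.5% against 3.60% and 15.9% against 4.57%. The cells with both numbered 67, 160, 38 and 109, where independence would give 15.9, 77.3, 9.78 and 42.6. Among B cells of 5000 to 10000 UMIs the shares were 25.6% against 4.52%, 29.8% against 11.1%, 15.9% against 3.01% and 12.0% against 3.63%, so the gap remained within a narrow band of depth. T cells showed 27.8% against 7.58%, 36.2% against 17.5%, 9.64% against 3.57% and 14.2% against 3.78%. Cells of 1 library share a pool of mice, and these shares are a description of each library.

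**Figure D5:**
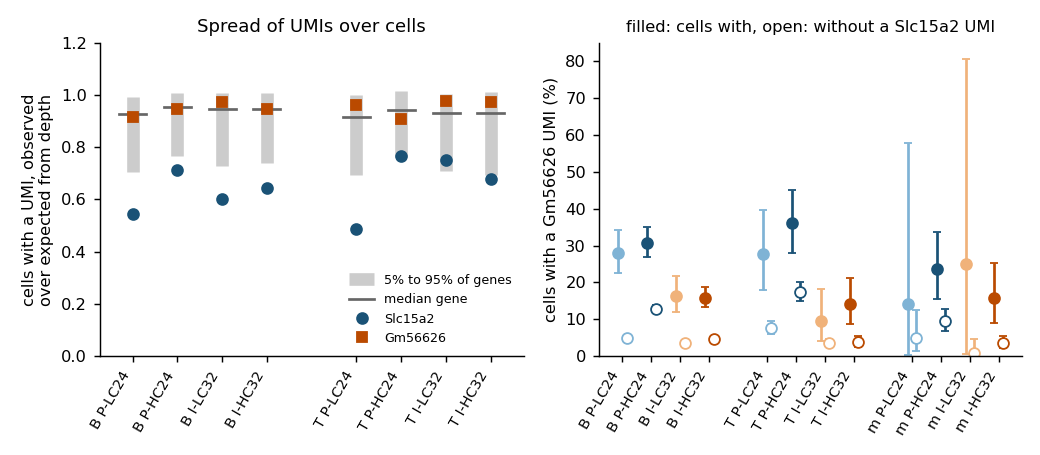
Left, number of cells with a Slc15a2 or Gm56626 UMI over the number that depth alone would give, for B (B) and T (T) cells of each library, with a grey bar for the range from 5% to 95% of genes and a line for the median gene. Right, percentage of B cells, T cells and macrophages (m) with a Gm56626 UMI among cells with (filled) and without (open) a Slc15a2 UMI, where filled B cell points lie at 15.9% to 30.8% and open ones at 3.60% to 12.7%.

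Within B cells, those rich in a B-1 set made up 25.0%, 46.1%, 44.1% and 66.8% in the 4 libraries. Those rich in follicular genes made up 71.0%, 48.3%, 50.1% and 28.0%. The B-1 set was Zbtb32, Cd5, Ahnak, Bhlhe41, Plscr1, Cd9 and Itgb1, and is not particular to B-1 cells. In P-LC24 it summed to 940 CPM in B cells, 574 in T cells, 1903 in NK cells and 1999 in macrophages. Whether the B-1-type cells are B-1 cells was not tested. Slc15a2 stood at 18.5, 17.0, 6.98 and 21.2 CPM in the B-1-type cells and at 22.6, 30.7, 14.2 and 41.5 CPM in the follicular-type cells. The pooled progression value near 0 thus joined -0.12 (-0.38 to 0.14) in B-1-type cells with 0.44 (0.22 to 0.67) in follicular-type cells, while the share of B-1-type cells, lower in CPM in all 4 libraries, was higher in P-HC24 than in P-LC24. The lower level of B-1-type cells held in CPM but not per cell. They were deeper, at a median of 11244 UMIs in P-LC24 against 5844 over all B cells there. Per cell they held more Slc15a2 UMIs in every library, 175, 438, 186 and 895 in 783, 2024, 2073 and 3159 cells. The follicular-type cells held 288, 360, 193 and 335 in 2222, 2122, 2358 and 1327 cells. The intervention value was 1.60 (1.37 to 1.84) in B-1-type and 1.55 (1.29 to 1.81) in follicular-type cells, both above the pooled 1.35. Gm56626 in the progression comparison was 0.62 (0.31 to 0.95) in B-1-type and 1.47 (1.17 to 1.77) in follicular-type cells.

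In T cells the intervention value of Slc15a2 was 1.64 (0.91 to 2.42) in those with a Cd4 UMI, 2.06 (1.58 to 2.56) in those with a Cd8a or Cd8b1 UMI, and 1.15 (0.54 to 1.78) in those with neither, with overlapping intervals. Its CPM in the CD8 cells was 14.7, 19.8, 8.41 and 35.2. The highest Gm56626 level of any of these subsets was that of CD4 cells in P-HC24, 46.0 CPM, with 2.64 Gm56626 UMIs per Slc15a2 UMI.

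Macrophages with a Gata6 UMI were 32 of 86 and 326 of 496 at week 24, and 54 of 120 and 516 of 673 at week 32. Among them the Slc15a2 progression value was 0.31 (-0.46 to 1.18), against 0.96 over all macrophages, and 15 of the 16 Slc15a2 UMIs of P-LC24 lay in these cells. The intervention value was 2.22 (1.07 to 3.68). The share of Gata6 cells was 37.2% and 65.7% in the progression libraries, and the interval within these cells reached 0. In macrophages with no Gata6 UMI the progression value was 3.59 (1.04 to 8.92), on 52 UMIs against 1, and the intervention value was 1.19 (0.02 to 2.59), on 43 and 7 UMIs.

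Other transcripts also differed between the libraries in the same gated cells, not always in the order of Slc15a2. The mast cell and basophil set (Cpa3, Ms4a2, Mcpt4, Mcpt8 and Cma1) summed to 15.4, 61.3, 15.8 and 72.6 CPM in B cells, and to 10.5, 36.1, 17.0 and 81.2 CPM in T cells. Among B cells with a Slc15a2 UMI 6.28%, 23.5%, 10.4% and 41.8% had a UMI of this set, against 9.45%, 24.1%, 11.3% and 41.9% of the others. In cells with no UMI of the set, the intervention value of Slc15a2 was 1.35 (1.17 to 1.53) in B cells, 1.90 (1.53 to 2.27) in T cells and 1.53 (0.70 to 2.47) in macrophages, as large as or near the values over all cells. The 14 to 27 cells gated as mast cells or basophils in each library held 2 Slc15a2 UMIs in all. Both were in P-HC24, at 16.5 CPM (2.00 to 59.7). In P-LC24, I-LC32 and I-HC32 the count was 0, where 3 counts would already be 37.1, 38.2 and 68.2 CPM. These limits lie above the B cell level of every library, so these cells were too few for a comparison. Lyz2, a myeloid gene, was at 39.0, 103, 29.7 and 137 CPM in B cells, and haemoglobin, from red cells, at 18214, 11698, 17201 and 3942 CPM. Their part in the result was not tested.

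The genes most alike to Slc15a2 were sought over 20 points, 5 classes (B, T, macrophage, NK and monocyte) in 4 libraries, by Pearson's r of log2(CPM + 1) over 13516 genes. They were Mcpt4 (0.83) and Cpa3 (0.80), both mast cell proteases, the zinc transporter Slc30a6 (0.75), Gm57337 (0.73), Ginm1 (0.72), Coq10b (0.70), the mast cell tryptase Tpsb2 (0.70), Gm16576 (0.69), the chaperone Fkbp4 (0.69) and Rabac1 (0.68). Gm56626 ranked 250 with r = 0.52. The genes most alike to Gm56626 were Rps27rt (0.86), Wdr89 (0.84), Rpl9-ps6 (0.84), Rps23 (0.83), Cdk8 (0.82), Cmss1, Rpl27, Gm14471, Rpl34 and Selenow (0.80), of which Rps23, Rpl27 and Rpl34 encode ribosomal proteins, and Slc15a2 ranked 918 among them. The points share libraries, depth and any free RNA, and by rank correlation only 3 of the first 10 and 5 of the second were the same genes. With the mean of each class over the libraries in place of the separate points, 0 of 10 were the same for either member.

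The other SLC15 members that could be counted in macrophages were Slc15a3 and Slc15a4. Both were lower in the libraries of the mice first fed high cholesterol. There Slc15a3 was lower in P-HC24 than in P-LC24, at 36.5 against 74.9 CPM (log2 ratio -1.04, -1.32 to -0.75), and lower in I-HC32 than in I-LC32, at 32.6 against 52.0 CPM (-0.67, -0.95 to -0.39). Slc15a4 was at 15.9 against 34.1 CPM (-1.10, -1.52 to -0.65) and at 20.9 against 28.1 CPM (-0.43, -0.80 to -0.04). Both ratios had the opposite sign to those of Slc15a2 in the same cells, where 51% of genes were at least 1.2-fold lower in the progression comparison and 42.2% in the intervention comparison. In B cells Slc15a4 was at 40.7, 31.0, 40.2 and 38.4 CPM, with an intervention value of -0.07 (-0.16 to 0.03). Slc15a1 and Slc15a5 had no UMI in macrophages or B cells. The monocyte set (Ccr2, F13a1, Ace, Treml4 and Ms4a4c), with 5 of 5 genes found in each library, summed to 726, 205, 593 and 133 CPM in the same gated macrophages, and the median share of these cells with a UMI of a macrophage set gene was 77.9%, 97.2%, 76.7% and 97.8%. The part of these values in the macrophage ratios of Slc15a3, Slc15a4 and the other lists was not tested.

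The sensing route downstream of the transporter was read with a list of 17 genes. Of the 17 genes of muramyl peptide sensing, 14 in the progression comparison and 16 in the intervention comparison could be counted, with 1 higher and 9 lower, and 2 higher and 7 lower, at 1.2-fold, where the share of all genes was 16.3% higher and 51% lower, and 14.1% higher and 42.2% lower. Their medians were -0.45 and -0.13, against -0.27 and -0.19 for all genes. Nod2, the sensor of muramyl dipeptide, was at 10.6, 4.87, 19.4 and 8.66 CPM, with a log2 ratio of -1.16 (-1.64 to -0.66) in the intervention comparison. Tab2, an adaptor of the kinase Tak1, gave -1.11 and -0.94, the transcription factor subunit Nfkb1 gave -0.23 and -0.41, and the feedback inhibitor Tnfaip3 gave 0.05 and 0.60. In B cells 0 of 14 were higher and 10 lower in the progression comparison, with 15.3% and 44.6% of all genes. In the intervention comparison 1 was higher and 0 lower, with 12.9% and 7.19% of all genes. In T cells 0 of 13 were higher and 8 lower in the progression comparison, with 11.6% and 46.5% of all genes. In the intervention comparison 3 were higher and 2 lower, with 18.2% and 9.88% of all genes.

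The remaining lists were read in macrophages too, beside the same shares of all genes, 51% lower and 16.3% higher in the progression comparison and 42.2% lower and 14.1% higher in the intervention comparison. Of the endosomal group around Slc15a3 and Slc15a4, 1 of 8 was higher and 5 lower in the progression comparison and 1 higher and 7 lower in the intervention comparison. Unc93b1, which escorts nucleic acid sensors to endosomes, gave 0.05 and -0.40, and the interferon regulator Irf5 gave -0.34 and -0.69. Of 18 peptidases, which make and break the small peptides that PEPT2 carries, 2 were higher and 7 lower, then 2 higher and 10 lower. The lysosomal peptidase Ctsc gave -0.38 and -0.25, and the aminopeptidase Lnpep -1.38 and -0.80. Of proton and sodium exchange genes, which maintain the gradients the transporter uses, 0 of 6 were higher and 3 lower, then 0 of 7 higher and 3 lower. The endosomal exchanger Slc9a9 was at 158, 32.1, 102 and 28.3 CPM (-2.30 and -1.85), while Atp1b3 gave -0.05 and -0.10. Of amino acid transporters, 0 of 11 were higher and 9 lower, then 0 of 12 higher and 8 lower, with Slc7a8 at -1.75 and -0.99 and Slc38a2 at -0.42 and -0.01. Slc7a11, the cystine transporter, differed little between the groups of mice (56.0 against 55.9 CPM, then 124 in both libraries).

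Within 200 kb of Slc15a2, 11 further genes had a UMI in at least 3 cells, and none reached the intervention value of Slc15a2, the highest being 0.79. Over all kept cells Slc15a2 gave 0.14 in the progression and 1.38 in the intervention comparison, and Gm56626 gave 0.95 and 0.27. The costimulatory gene Cd86 gave 0.12 and 0.32, the signalling adaptor Hcls1 gave -0.16 and -0.14, the Golgi gene Golgb1 gave -0.20 and 0.25, and Eaf2 gave -0.38 and 0.23. Ildr1 gave -0.41 and -0.24, Iqcb1 gave -0.67 and -0.07, 2600002D14Rik gave -0.90 and -0.38, Fbxo40 gave -1.44 and -0.38, Casr gave -0.56 and -0.04, and the lncRNA Gm49662 gave 0.92 and 0.38. Within B cells, where Gm56626 gave 0.95 and 0.33, Gm49662 gave 0.02 (-0.31 to 0.36) and -0.11 (-0.38 to 0.16). At 4930565N06Rik the values were -2.15 and 0.79, from 2.68, 0.60, 0.50 and 0.87 CPM.

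Related sequence is also found in other annotated genes. At least 1 window of 90 bases was shared with 79 annotated genes, of which 18 had a UMI in at least 3 cells and 11 had at least 100 UMIs. These 11 shared between 0.47% and 57.3% of the Gm56626 windows, and how many of their own UMIs came from the shared stretches cannot be seen. Of these 11, over all kept cells, 1 was at least 1.2-fold higher and 7 lower in the progression comparison (median -0.38), against 0.95 for Gm56626, where 16.5% of all genes were higher and 47.5% lower. In the intervention comparison 2 were higher and 3 lower (median -0.21), with 13.4% and 12.2% of all genes. From week 24 to 32 in the mice first fed high cholesterol 5 were higher and 1 lower (median 0.24), against -1.73 for Gm56626 and with 37.2% and 4.56% of all genes. In the mice kept on low cholesterol 4 were higher and 4 lower (median -0.03), against -1.04 for Gm56626 and with 18.6% and 18.5% of all genes.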

How the data were processed

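Per the labels and the study's methods, pooled aspirates were dissociated, depleted of red and dead cells and captured with a 10x 3′ kit. The authors deposited UMI counts per gene and barcode made with Cell Ranger 9.0.1 on GRCm39; the submitters' processing notes also list Seurat 5.3. From these counts, cells with at least 500 UMIs, at least 300 genes and at most 10% mitochondrial UMIs were kept, and the highest Scrublet scores (scanpy 1.11.5), 0.8% per 1000 cells, were removed as doublets. B cells, T cells and macrophages needed at least 5 UMIs of their marker set and 5 times those of each other set. Counts were summed by class and library and divided by the class total (CPM, exact Poisson intervals, scipy 1.17.1). Ratios carry exact conditional intervals, and shares exact Clopper-Pearson intervals. With 1 library per condition no test was possible, and no p-value is given. Genes were counted past 1.2-fold or 2-fold if at least 10% of cells of either library had a UMI and both libraries together held at least 100. Thinned shares are expected values at 1000 UMIs per cell. Positions came from GENCODE annotation of GRCm39, which may differ from the annotation used for counting. Named genes were the members, the SLC15 family, genes within 200 kb, the 10 most alike to each member, and of each list the 2 highest in macrophages and those past 2-fold there. A gene that this rule names is not reported here. The members and lists were chosen with earlier results of these data known. Python 3.11.15, numpy 2.4.6, pandas 2.3.3 and matplotlib 3.10.9 were used, and the code was tested on simulated data.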

Additional observations from a re-analysis of the deposited data

Results flagged for a closer look

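The ratios of Slc15a2 over time had opposite signs in the lymphocytes of the 2 groups of mice. In B cells the log2 ratio of week 32 to week 24 was 0.21 in the mice changed from high to low cholesterol and -1.13 in those kept on low cholesterol. In T cells it was 0.58 and -0.90. The median gene stood at 0.22 and -0.01 in B cells and at 0.32 and 0.05 in T cells, so the B cell value of the first group was that of the median gene. In macrophages the values were -0.02 (-0.30 to 0.26) and -0.86 (-2.04 to 0.29), and both intervals reached 0, so no sign can be given. Each value rests on 1 library at each time point, and the difference between the groups was not tested.

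Both members were also counted in barcodes that failed the cell filters, which no comparison used. Slc15a2 was at 6.71 CPM in 2105 such barcodes of P-LC24, 17.1 CPM in 1414 of P-HC24, 4.23 CPM in 2851 of I-LC32 and 29.3 CPM in 1470 of I-HC32. Gm56626 was at 3.75, 18.0, 3.44 and 6.16 CPM in the same order. The limit that 3 counts set there was 0.169 to 0.277 CPM. Only in I-HC32 were both above their level in kept cells, 25.0 and 5.66 CPM. The cause was not tested.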

How the results depend on the processing

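Over the alternatives tried, no ratio whose interval left 0 changed sign. The progression ratio of Slc15a2 ranged from -0.03 to 0.28 in B cells, 0.13 to 0.50 in T cells and 0.31 to 1.5 in macrophages, and its intervention ratio from 1.04 to 1.65, 1.58 to 1.93 and 1.58 to 2.25. For Gm56626 the progression ratio ranged from 0.93 to 1.27 in B cells and 1.32 to 1.69 in T cells, and the intervention ratio from 0.03 to 0.62 and 0.45 to 0.96. With at most 5% mitochondrial UMIs, Slc15a2 in B cells stood at 23.5, 28.3, 13.4 and 27.5 CPM at P-LC24 and P-HC24, then I-LC32 and I-HC32, with ratios of 0.27 and 1.04; Gm56626 stood at 24.8 in P-HC24 and 6.03 in I-LC32, with ratios of 1.27 and 0.028, and the I-HC32 pair ratio was 0.224. A gate minimum of 10 UMIs gave 8.27 CPM for Slc15a2 in T cells of I-LC32. Taken per cell of 1 common size, with no scaling to depth, Slc15a2 in B cells was 17.0 CPM in P-LC24 and 29.7 CPM in I-HC32 (ratios 0.28 and 1.65), and Gm56626 was 8.35 and 7.55 (1.22 and 0.62). With immunoglobulin, haemoglobin, mitochondrial and ribosomal protein genes left out of the total, Slc15a2 stood at 32.5, 36.1, 14.9 and 37.4 CPM in B cells, 30.2, 40.5, 15.4 and 50.2 in T cells, and 23.6 in P-HC24 and 21.7 in I-HC32 macrophages; Gm56626 stood at 15.9, 33.8, 7.71 and 9.52 in B cells, 18.0, 55.2, 8.12 and 11.5 in T cells and 7.77 in P-HC24 macrophages. The mean of per-cell CPM gave 24.5, 11.5 and 28.8 for Slc15a2 in B cells of P-HC24, I-LC32 and I-HC32 and 23.8 for Gm56626 in P-HC24. The Slc15a2 progression ratio of B cells was 0.22 relative to the median gene and 0.22 from thinned shares, the latter an alternative chosen after seeing the data, as were leaving out shared barcodes and keeping Gata6 macrophages only. The causes were not tested.

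The number of genes past 1.2-fold depended on the limit. In B cells 1011 were higher and 2956 lower in the progression comparison, 2337 and 6819 with a minimum of 20 UMIs and no share of cells, and 164 and 847 past 1.5-fold; in the intervention comparison the counts were 968 and 539, 2928 and 3057, and 132 and 88. In T cells they were 791 and 3182, 1708 and 5677, and 105 and 931 in the progression comparison, and 1231 and 669, 3078 and 2459, and 222 and 113 in the intervention comparison. In macrophages 1304 and 1237 were higher in the 2 comparisons, 2194 and 2120 with the lower minimum, and 505 and 444 past 1.5-fold, where 2263 and 1436 rather than 4075 and 3697 were lower. No paired analysis was possible because each condition is 1 library, the labels carry no shared replicate numbers and cells are not replicates. For the same reason no library could be left out. Depth limits the macrophages of the low-cholesterol libraries most, with 13 to 16 Slc15a2 and 2 to 5 Gm56626 UMIs.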
